A study of Mus musculus with 2 samples.

Results

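The Ifi200 family (also called the HIN-200 or PYHIN family) was followed across the cell lineages of NOD/ShiLtJ and CD1 mouse salivary glands. Its 10 members here, *Mndal*, *Ifi202b*, *Ifi203*, *Ifi204*, *Ifi205*, *Ifi207*, *Ifi209*, *Ifi211*, *Ifi213* and *Aim2*, were taken by symbol from the 50768 gene rows of the count tables. A further 4 rows of the same family (*Ifi203-ps*, *Ifi206*, *Ifi208* and *Ifi214*) are given beside them. The members were selected on measured values of these libraries, namely the higher level of *Mndal* in NOD cells, so the levels and ratios of the strains are a description and carry no test. The question was whether the family differed like *Mndal* across lineages or like the genes that interferon induces.

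Single-cell RNA sequencing (scRNAseq) was done on 1 library per strain, each from pooled submandibular glands with the adjacent sublingual glands of untreated female mice at 20 weeks of age. NOD/ShiLtJ is an inbred strain that develops diabetes and a Sjögren's-like disease with lymphocytes in the salivary glands, and CD1 is the outbred control strain. The study's methods give 4 mice per pool and the labels give 3, and cells with EpCAM or Ter119 and dead cells were removed before loading. With 1 library per strain there was no replicate, so every interval below covers counting error only, at 95%, and no difference could be tested.

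Most proteins of this family carry a HIN domain that binds DNA, and most carry a pyrin domain that recruits other proteins. Many of the genes are induced by interferon. *Aim2* encodes a sensor of DNA in the cytosol that builds an inflammasome with the adaptor encoded by *Pycard* and the protease encoded by *Casp1*. *Ifi202b* encodes a member without a pyrin domain that is known to oppose *Aim2*, *Ifi204* encodes p204, a nuclear and cytosolic DNA-binding protein, and *Mndal* encodes a nuclear relative of the human myeloid nuclear differentiation antigen.

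The family genes lie next to each other on mouse chromosome 1, and in RefSeq gene order *Mndal* stands between *Ifi203-ps* and *Ifi211*, with *Aim2* at one end and *Ifi205* at the other. Upstream windows of 250 bases before the annotated start were available from RefSeq (GRCm38.p6, the C57BL/6J reference) for 9 of the 10 members. They were searched on both strands for the core of the interferon-stimulated response element, spelled GAAA, any 2 bases and GAAA. The stretches below are shown because they separate the members by this core, which is in capitals. Each is 30 bases of the strand of the gene, and for *Mndal* and *Ifi203* it is upstream of the annotated start that has the core on that strand.
Mndal: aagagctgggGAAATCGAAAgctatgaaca
Ifi203: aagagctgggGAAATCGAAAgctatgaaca
Ifi207: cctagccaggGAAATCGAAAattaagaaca
Ifi213: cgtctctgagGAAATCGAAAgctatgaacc
Ifi211: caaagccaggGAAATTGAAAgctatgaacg
Ifi205: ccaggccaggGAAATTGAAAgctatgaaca
Ifi209: ggaggggaacTTCCTGTTTCttagctcttc
Aim2: tgtaactctgTTTCTTTGTCtgagcaagaa
Ifi202b: ggtaataagaTGTCCATGTCtgaacttgta
The upper 6 hold the core, and for the lower 3 the capitals mark the closest stretch, which reads on the opposite strand and differs from it at 1 letter in *Ifi209* and *Aim2* and at 2 letters in *Ifi202b*.

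The *Mndal* stretch, at chr1:173880204-173880233 on the minus strand, begins its core 36 bases before the start, and GENCODE M21 places it within an exon of a longer *Mndal* transcript. The *Ifi203* stretch, at chr1:173942508-173942537 on the minus strand, begins its core 35 bases before the start. The upstream windows of *Mndal* and *Ifi203* shared 89.3% of aligned bases and an unbroken run of 96 bases, the highest identity of any pair of members. Over the family, 9 of 12 genes with a window held the core (6 of 9 members, and *Ifi206*, *Ifi208* and *Ifi214*), against 936 of 27025 genes (3.46%) overall. TTCNNNGAA, the core of the gamma-activated site, which reads the same on both strands, was found only in the *Ifi202b* window among the 12, against 8.13% of all genes. A match of letters is not evidence that a factor binds there, and the sequence of NOD/ShiLtJ or CD1 DNA was not analysed here.

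Barcodes with at least 500 unique molecular identifiers (UMIs) and at least 300 genes were kept, 6500.0 in NOD and 7014 in CD1, with median depths of 5720 and 6495 UMIs. A barcode was named by the lineage whose marker UMIs led, as T-like (2102 NOD and 105 CD1), NK-like (564 and 353), macrophage-like (731 and 2967), endothelial-like (1084 and 2926) or fibroblast-like (59 and 18). In these 5 lineages every marker of the named list was detected in both libraries. CD1 held only 9 B-like barcodes against 903 in NOD, so B-like levels are given without a ratio. The libraries shared 18 kept barcodes, 0.277% of NOD and 0.257% of CD1. Levels are UMIs per 1000000 UMIs of the lineage in that library (CPM), and a gene was counted as past 2-fold at a log2 ratio of NOD over CD1 of at least 1 in size with at least 20 UMIs.

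*Mndal* was higher in NOD in each of these lineages, by 3.22-fold to 5.24-fold. T-like barcodes held 475 CPM in NOD (464 to 486) and 90.7 CPM in CD1 (71.9 to 113), so the log2 ratio was 2.39 with an interval of 2.07 to 2.72. NK-like barcodes held 433 CPM in NOD and 135 CPM in CD1, with a log2 ratio of 1.69 (1.55 to 1.82).
The NK-like ratio was the smallest of the 5. Macrophage-like barcodes held 332 CPM in NOD and 80.1 CPM in CD1, a log2 ratio of 2.05 (1.95 to 2.15), at median depths of 3547 and 7050 UMIs. In endothelial-like barcodes the level was 541 CPM in NOD and 120 CPM in CD1, with a log2 ratio of 2.17 (2.09 to 2.25). Fibroblast-like barcodes stood at 513 CPM in NOD and 120 CPM in CD1, with a log2 ratio of 2.10 and the widest interval (1.41 to 2.87), since CD1 gave 18 UMIs. The lowest NOD level of these lineages thus lay above the highest CD1 level.

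The order of the lineages differed between the strains. In NOD, the endothelial-like, fibroblast-like and T-like levels of *Mndal* came first, and the intervals of the fibroblast-like level (457 to 574) covered those of both neighbours. The NK-like level (415 to 451) and the B-like level of 425 CPM (407 to 444) overlapped, and the macrophage-like level (316 to 350) lay below all of them. In CD1, the NK-like level (124 to 146) and the endothelial-like level (115 to 125) came first and overlapped, and the macrophage-like level (76.3 to 84.1) came last and overlapped the T-like one. The CD1 fibroblast-like interval (71.1 to 190) covered all of them. The share of barcodes with a *Mndal* UMI gave the same direction after each barcode was thinned to 500 UMIs, at 21.9% of NOD and 1.90% of CD1 T-like barcodes (83.7% and 41.0% before thinning) and 22.9% of NOD and 6.19% of CD1 endothelial-like barcodes (76.4% and 40.6% before). Epithelial-like barcodes, in which the family is not expected at a high level, held 0 *Mndal* UMIs in 8 NOD barcodes (median depth 2493 UMIs), which allows up to 70.9 CPM, and 1 UMI in 65 CD1 barcodes (2952 UMIs), or 3.17 CPM.

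**Figure D1:**
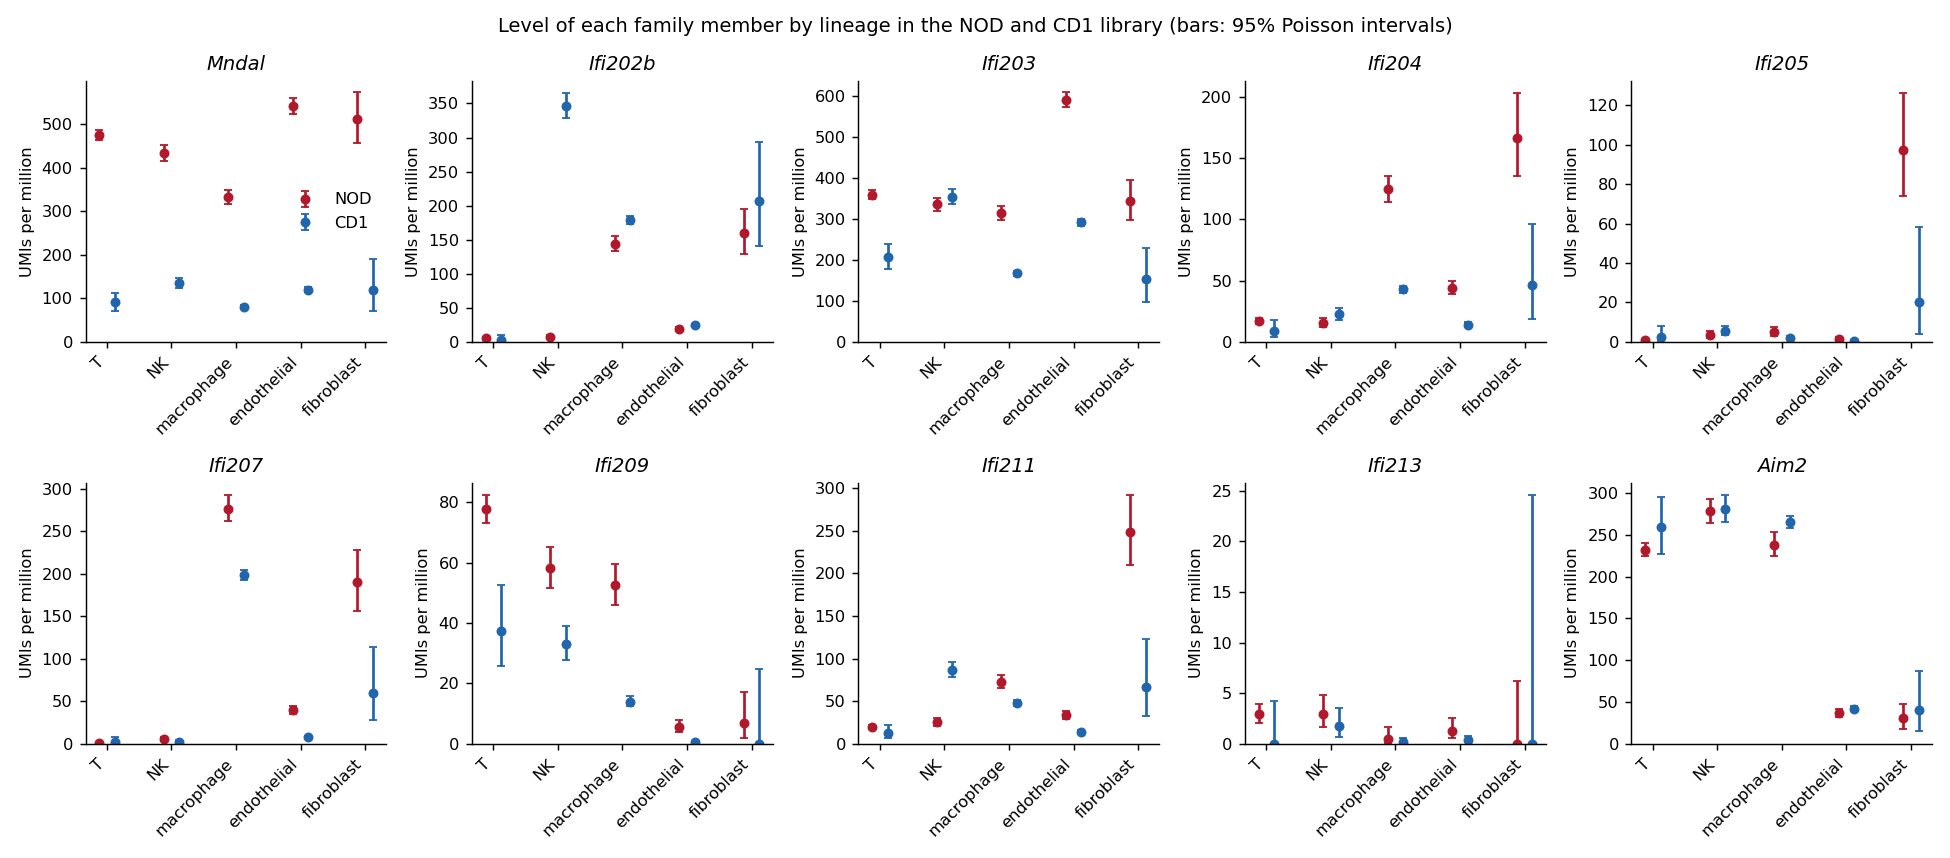
Level of the 10 family members in CPM (vertical axis, starting at 0, a scale of its own for each gene) in T-like, NK-like, macrophage-like, endothelial-like and fibroblast-like barcodes of the NOD library (red) and the CD1 library (blue), with 95% Poisson intervals. *Mndal* lay between 332 and 541 in NOD and between 80.1 and 135 in CD1, *Aim2* was close in both libraries, and *Ifi202b* stood at 346 in CD1 NK-like barcodes against 7.14 in NOD.

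*Ifi202b* ran against *Mndal*. In NK-like barcodes it stood at 7.14 CPM in NOD (37 UMIs) and 346 CPM in CD1 (1415 UMIs), 48.5-fold lower in NOD with a log2 ratio of -5.60 (-6.11 to -5.13). A UMI of *Ifi202b* was found in 2.48% of NOD and 83.3% of CD1 NK-like barcodes, and in 0.355% and 15.0% after thinning to 500 UMIs.
The NK-like barcodes of the libraries differed in kind, because barcodes with more *Xcl1* than *Gzma* and *Eomes* UMIs made up 50.7% of those in NOD and 86.4% in CD1. Within those with more *Xcl1*, the log2 ratio of *Ifi202b* was -5.57 (-6.28 to -4.93), and within those with more *Gzma* and *Eomes* it was -6.38 (-7.54 to -5.42). The remaining barcodes, with equal numbers of these UMIs, held 34.3 CPM in NOD (8 UMIs) and 96.9 CPM in CD1 (5 UMIs). The split was chosen after the values were seen.
In the other lineages *Ifi202b* stayed under 2-fold. Macrophage-like barcodes held 144 CPM in NOD and 178 CPM in CD1 (log2 ratio -0.31, -0.43 to -0.19). Fibroblast-like barcodes held 160 and 207 CPM (-0.37, -0.97 to 0.26), and endothelial-like barcodes 18.7 and 24.5 CPM (-0.39, -0.69 to -0.09). T-like barcodes were low in both, at 5.88 CPM in NOD and 3.40 CPM in CD1 (3 UMIs).

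*Aim2* did not move with *Mndal*. T-like barcodes held 232 CPM in NOD and 260 CPM in CD1 (log2 ratio -0.16, -0.36 to 0.04), and NK-like barcodes held 278 and 281 CPM (-0.02, -0.13 to 0.10). Macrophage-like barcodes held 238 and 265 CPM (-0.15, -0.25 to -0.06), and endothelial-like barcodes were lower in both, at 36.5 and 41.5 CPM (-0.19, -0.40 to 0.03). The counting intervals of these 4 lineages all lay between -0.40 and 0.10.

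*Ifi203*, whose upstream sequence is nearest to that of *Mndal*, differed less and not in every lineage. It stood at 591 CPM in NOD and 291 CPM in CD1 endothelial-like barcodes (log2 ratio 1.02, 0.96 to 1.08), and at 314 and 167 CPM in macrophage-like barcodes (0.91, 0.82 to 1.00). T-like barcodes held 359 and 206 CPM (0.80, 0.59 to 1.02), whereas NK-like barcodes held 335 and 353 CPM (-0.08, -0.18 to 0.03). In NK-like barcodes the interval of *Ifi203* thus included 0 while *Mndal* was 3.22-fold higher in NOD. Fibroblast-like barcodes held 343 CPM in NOD and 153 CPM in CD1 (1.16, 0.54 to 1.85).

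*Ifi204* was higher in NOD macrophage-like barcodes, with 124 CPM against 42.8 CPM in CD1 (log2 ratio 1.54, 1.38 to 1.69). It was also higher in endothelial-like barcodes, with 44.1 against 14.1 CPM (1.64, 1.40 to 1.89), and in fibroblast-like barcodes, with 166 against 46.7 CPM (1.84, 0.74 to 3.19). In NK-like barcodes it stood at 15.4 CPM in NOD and 22.5 CPM in CD1 (-0.54, -0.996 to -0.097), but within those with more *Xcl1* the ratio was -0.29 with an interval that includes 0 (-0.85 to 0.25), and within those with more *Gzma* and *Eomes* it was -1.23 (-2.18 to -0.20).
*Ifi207* and *Ifi211* also varied by lineage. *Ifi207* stood at 39.4 CPM in NOD and 8.06 CPM in CD1 endothelial-like barcodes (2.29, 2.00 to 2.59), but at 277 and 199 CPM in macrophage-like barcodes (0.48, 0.39 to 0.57). *Ifi211* stood at 33.3 and 14.0 CPM in endothelial-like barcodes (1.24, 0.98 to 1.51) and at 72.7 and 47.7 CPM in macrophage-like ones (0.61, 0.42 to 0.79). In NK-like barcodes *Ifi211* was lower in NOD, at 24.9 CPM against 86.9 CPM (-1.80, -2.11 to -1.51), and it was lower within each kind of NK-like barcode, at -1.58 and -2.44.

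*Ifi209* was higher in NOD wherever it had 20 UMIs. T-like barcodes held 77.6 CPM in NOD and 37.4 CPM in CD1 (log2 ratio 1.05, 0.55 to 1.60), NK-like barcodes 58.1 and 33.0 CPM (0.81, 0.52 to 1.12) and macrophage-like barcodes 52.4 and 13.9 CPM (1.92, 1.66 to 2.17). In endothelial-like barcodes it was rare, with 35 NOD and 9 CD1 UMIs. *Ifi205* and *Ifi213* gave few UMIs in most of these lineages. *Ifi205* reached 97.5 CPM in NOD fibroblast-like barcodes (58 UMIs) against 20.0 CPM in CD1 (3 UMIs), and at most 5.38 CPM in the other 4 lineages. *Ifi213* gave 41 UMIs in NOD T-like barcodes, or 2.90 CPM, and 0 in CD1, which allows up to 3.40 CPM, so no difference was detectable at this depth.

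Near-identical copies limit some of these values. Of the 50-base windows in the last 500 bases of the annotated transcripts (GENCODE M21), 79.2% of those of *Ifi205* were also found in *Ifi211*, 77.4% of those of *Ifi211* in *Ifi205*, and 63.4% of those of *Ifi209* in *Ifi214*. For *Mndal* the share found in any other family member was 18.7%, for *Ifi203* 1.11%, and for *Ifi202b* and *Aim2* 0. Values of *Ifi205*, *Ifi211*, *Ifi209* and *Ifi214* are therefore uncertain as to which copy gave them. The genome named by the submitters, GRCm39, is that of C57BL/6J. Copies or sequence differences of this locus in NOD/ShiLtJ or CD1 were not analysed here, so each ratio, those of *Mndal* and *Ifi202b* included, compares the reads assigned to the C57BL/6J copy.

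**Figure D2:**
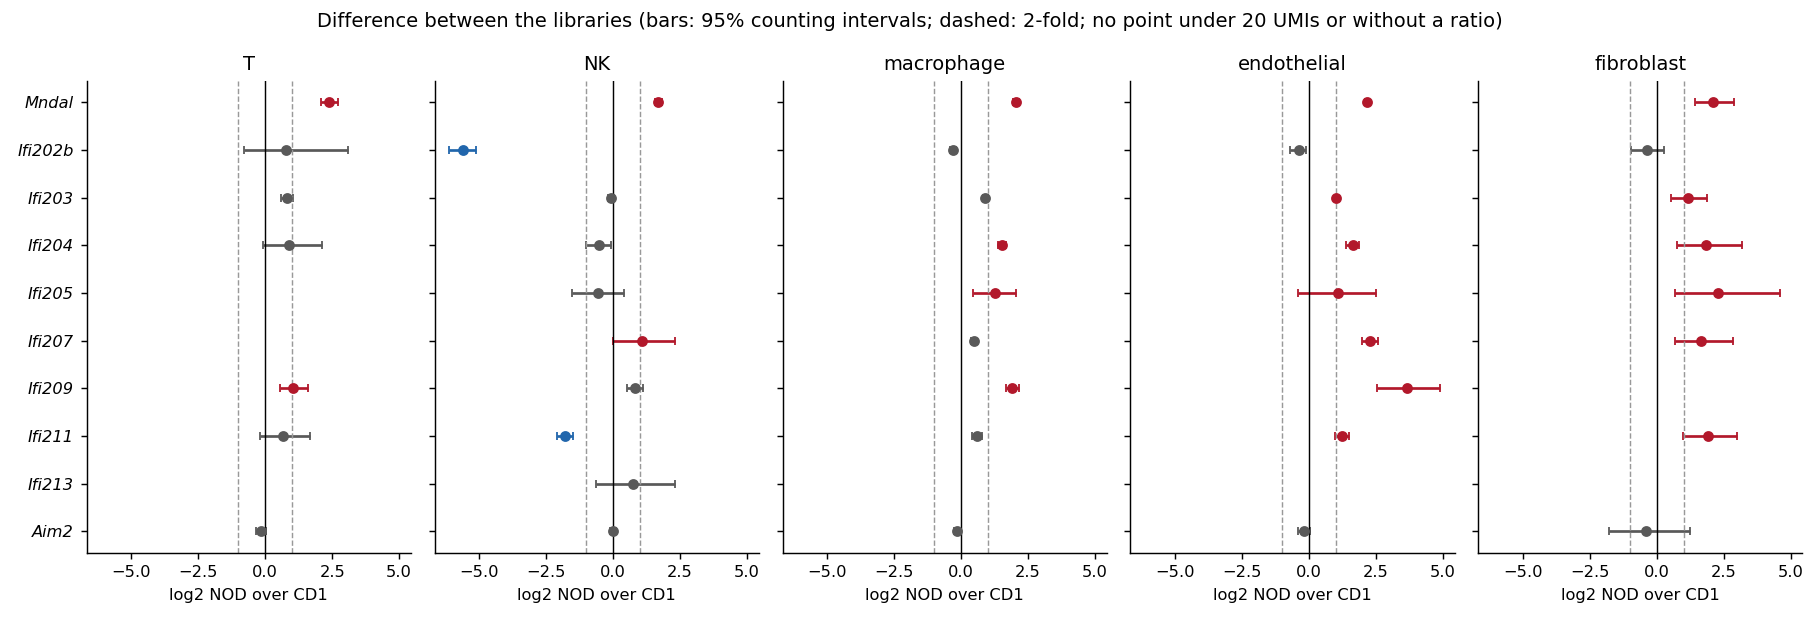
Log2 ratio of NOD over CD1 (horizontal axis) for each family member in 5 lineages, with 95% counting intervals. Solid lines mark 0 and dashed lines 2-fold, red points were past 2-fold higher in NOD, blue points past 2-fold lower, and members under 20 UMIs or without a ratio have no point. *Mndal* was red in all 5 panels, *Aim2* stayed near 0, and *Ifi202b* and *Ifi211* were blue in the NK-like panel.

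Counted over the members with 20 UMIs, those past 2-fold higher in NOD were 2 of 8 in T-like barcodes (*Mndal* and *Ifi209*), where 9.23% of all genes were, 2 of 10 in NK-like barcodes (*Mndal* and *Ifi207*, 6.94% of all genes) and 4 of 9 in macrophage-like barcodes (8.51%). In endothelial-like barcodes they were 7 of 9 (7.98%) and in fibroblast-like barcodes 6 of 8 (15.5%). Past 2-fold lower in NOD were *Ifi202b* and *Ifi211* in NK-like barcodes, 2 of 10, where 4.08% of all genes were, and none of the members in T-like (5.5% of all genes), macrophage-like (5.76%), endothelial-like (4.29%) or fibroblast-like barcodes (5.67%). The rule that chose the members used these contrasts, so nothing is read from the counts. The calls of *Ifi207* in NK-like barcodes (27 NOD and 10 CD1 UMIs) and of *Ifi205* in endothelial-like ones (8 and 12 UMIs) rest on few UMIs and changed sign under other settings. Under at least 1 alternative the ratio of *Ifi205* fell below 2-fold in macrophage-like (to 0.16) and fibroblast-like barcodes (to 0.96), as did that of *Ifi207* in fibroblast-like barcodes (to 0.61), of *Ifi203* in fibroblast-like (to 0.88) and endothelial-like barcodes (to 0.95) and of *Ifi209* in T-like barcodes (to 0.94). The median log2 ratio of the counted members was 0.79 in T-like, -0.05 in NK-like, 0.91 in macrophage-like, 1.24 in endothelial-like and 1.75 in fibroblast-like barcodes, beside medians of all genes between 0.04 and 0.13. Of 10961 genes with 20 UMIs in each of the 4 lineages with at least 50 barcodes per library, 69 (0.63%) were past 2-fold higher in NOD in all 4. *Mndal* was the only one of the 10 members among them, and *Ifi206* was there too. *Ifi205*, *Ifi207* and *Ifi213* had under 20 UMIs in at least 1 of the 4 lineages, so they could not be counted. The 69 also held 8 of the 28 genes of the type I interferon list used here, namely *Rsad2*, *Ifit1*, *Ifit2*, *Ifit3*, *Mx1*, *Mx2*, *Usp18* and *Ifi44*. The smallest ratio over the 4 lineages was 2.07 for *Rsad2* and 1.69 for *Mndal*.

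The other rows of the family followed neither pattern as a group. *Ifi206* was higher in NOD in T-like (log2 ratio 1.16), NK-like (1.42), macrophage-like (2.11) and endothelial-like barcodes (3.36), at 35.4 CPM or less. Its endothelial-like ratio rests on 16 NOD and 5 CD1 UMIs (1.85 to 5.16) and its T-like ratio on 14 CD1 UMIs (0.40 to 2.04). *Ifi214* was past 2-fold in macrophage-like (3.47) and endothelial-like barcodes (3.20, from 20 NOD and 7 CD1 UMIs). It stood at 0.68 in T-like and 0.62 in NK-like ones. *Ifi208* was at -0.11 in T-like and -0.04 in NK-like barcodes and at 1.57 and 1.51 in macrophage-like and endothelial-like ones. The pseudogene *Ifi203-ps* had 0 UMIs in both libraries.

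Summed over the 10 members, the family held 1191 CPM in NOD and 624 CPM in CD1 T-like barcodes (log2 ratio 0.93, 0.81 to 1.06), but 1163 and 1268 CPM in NK-like barcodes (-0.12, -0.18 to -0.07). In NK-like barcodes *Mndal* was 37.2% of the family UMIs in NOD and 10.6% in CD1, whereas *Ifi202b* was 0.613% and 27.3%. The sum was 1560 and 996 CPM in macrophage-like barcodes (0.65), 1312 and 515 CPM in endothelial-like barcodes (1.35) and 1756 and 713 CPM in fibroblast-like barcodes (1.30). Over all kept barcodes *Mndal* made up 36.8% of the family UMIs in NOD and 12.8% in CD1. These shares count UMIs and are not corrected for transcript length.
Levels over all barcodes also followed the make-up of the libraries. *Ifi207* was lower in NOD over all barcodes, at 41.6 CPM against 89.5 CPM, although it was higher in NOD macrophage-like, endothelial-like and fibroblast-like barcodes, and macrophage-like barcodes were 11.2% of NOD and 42.3% of CD1.

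**Figure D3:**
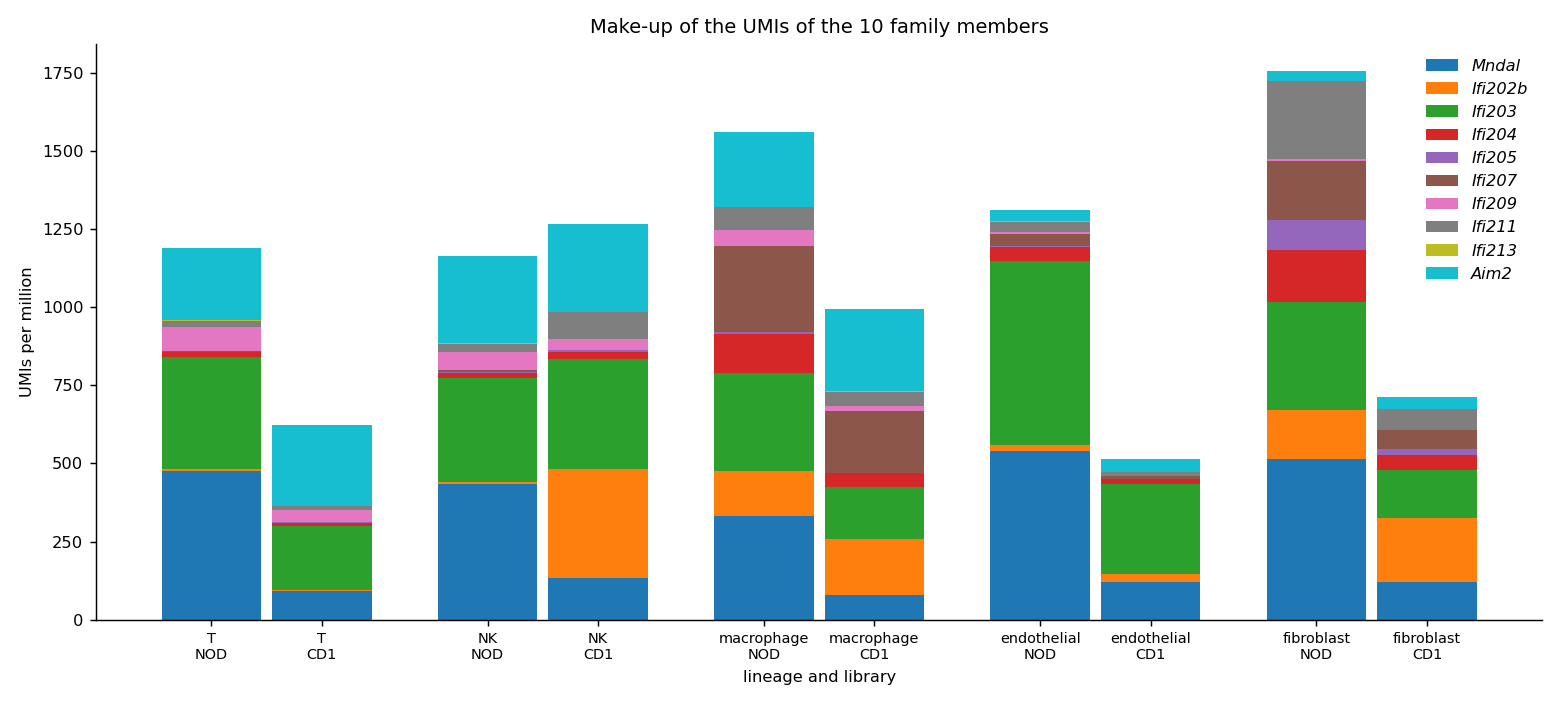
Stacked levels of the 10 family members in CPM (vertical axis, from 0) by lineage and library, each colour 1 gene. *Mndal* (lowest segment) made up 37.2% of the NOD NK-like bar against 10.6% in CD1, where *Ifi202b* (orange, 27.3%) took up much of the bar.

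Interferon genes gave the background against which the family was set, from lists assembled here with earlier results of these data known. The type I interferon list holds antiviral genes such as *Ifi27l2a*, *Bst2*, *Parp14* and *Trim30a*. Past 2-fold higher in NOD were 20 of 28 measured genes in T-like, 13 of 27 in NK-like, 22 of 28 in macrophage-like, 15 of 27 in endothelial-like and 16 of 19 in fibroblast-like barcodes, and none was past 2-fold lower. Over all genes, the shares past 2-fold higher were 9.23%, 6.94%, 8.51%, 7.98% and 15.5% in the same order, and 4.08% to 5.76% were lower. The median log2 ratio of the list was 1.19, 0.94, 1.35, 1.04 and 1.54 in that order. The most abundant gene, *Ifi27l2a*, stood at 2.44 in T-like, 2.60 in NK-like, 2.37 in endothelial-like and 0.93 in macrophage-like barcodes.
The interferon-gamma list, with the immunoproteasome genes *Psmb8* and *Psmb9* and the GTPase genes *Iigp1*, *Gbp4* and *Gbp7*, varied more by lineage. It had 4 of 23 genes past 2-fold higher in T-like, 3 of 22 in NK-like, 15 of 23 in macrophage-like, 8 of 23 in endothelial-like and 17 of 19 in fibroblast-like barcodes. Its median log2 ratio was 0.58, 0.49, 1.38, 0.87 and 2.47. *Iigp1* ranged from 0.96 in endothelial-like to 5.91 in fibroblast-like barcodes, whereas *Gbp4* was -0.01 in NK-like and 3.56 in fibroblast-like barcodes. *Psmb8* lay between -0.04 and 0.09 in T-like, NK-like and endothelial-like barcodes and at 0.67 in macrophage-like ones.

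Set beside these lists, *Mndal* lay above the type I median in each of the 5 lineages and varied between 1.69 and 2.39. The median of the family as a whole was -0.05 in NK-like barcodes, where the type I median was 0.94 and the interferon-gamma median 0.49. It was also below the type I median in T-like (0.79 against 1.19) and macrophage-like barcodes (0.91 against 1.35). In endothelial-like (1.24 against 1.04) and fibroblast-like barcodes (1.75 against 1.54) the family median was above it. The interferon-gamma median was below that of the family in T-like (0.58) and endothelial-like barcodes (0.87) and above it in macrophage-like (1.38) and fibroblast-like ones (2.47). In macrophage-like and endothelial-like barcodes *Ifi204* and *Ifi209* stood at 1.54 to 3.64, at or above the type I medians. *Aim2* and *Ifi202b* stayed below the type I median in all 5 lineages.
Genes of DNA sensing that work with *Aim2* or beside it differed little. Of the list of 16, past 2-fold higher in NOD were *Casp1* (log2 ratio 1.01) and *Ninj1* (1.39) of 12 measured genes in T-like barcodes, *Casp4* (1.20) and *Zbp1* (1.37) of 14 in macrophage-like ones and *Zbp1* (2.29) of 14 in endothelial-like ones. Over all genes, 9.23% in T-like, 8.51% in macrophage-like and 7.98% in endothelial-like barcodes were past 2-fold higher, and 4.29% in endothelial-like ones were lower. *Il1b* (1 NOD and 20 CD1 UMIs) and *Nlrc4* (5 and 34 UMIs) were past 2-fold lower in endothelial-like barcodes, and none of 11 was past 2-fold in NK-like barcodes. All of these but *Zbp1* are named because they were past 2-fold, after their values were seen. *Pycard*, which encodes the adaptor of *Aim2*, stood at 0.09 in T-like, 0.22 in NK-like, 0.32 in macrophage-like and 0.56 in endothelial-like barcodes. *Sting1*, *Tbk1* and *Irf3*, which act downstream of cyclic GMP-AMP, ranged from -0.27 to 0.58 in these 4 lineages. *Zbp1* is a member of the type I list as well.

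**Figure D4:**
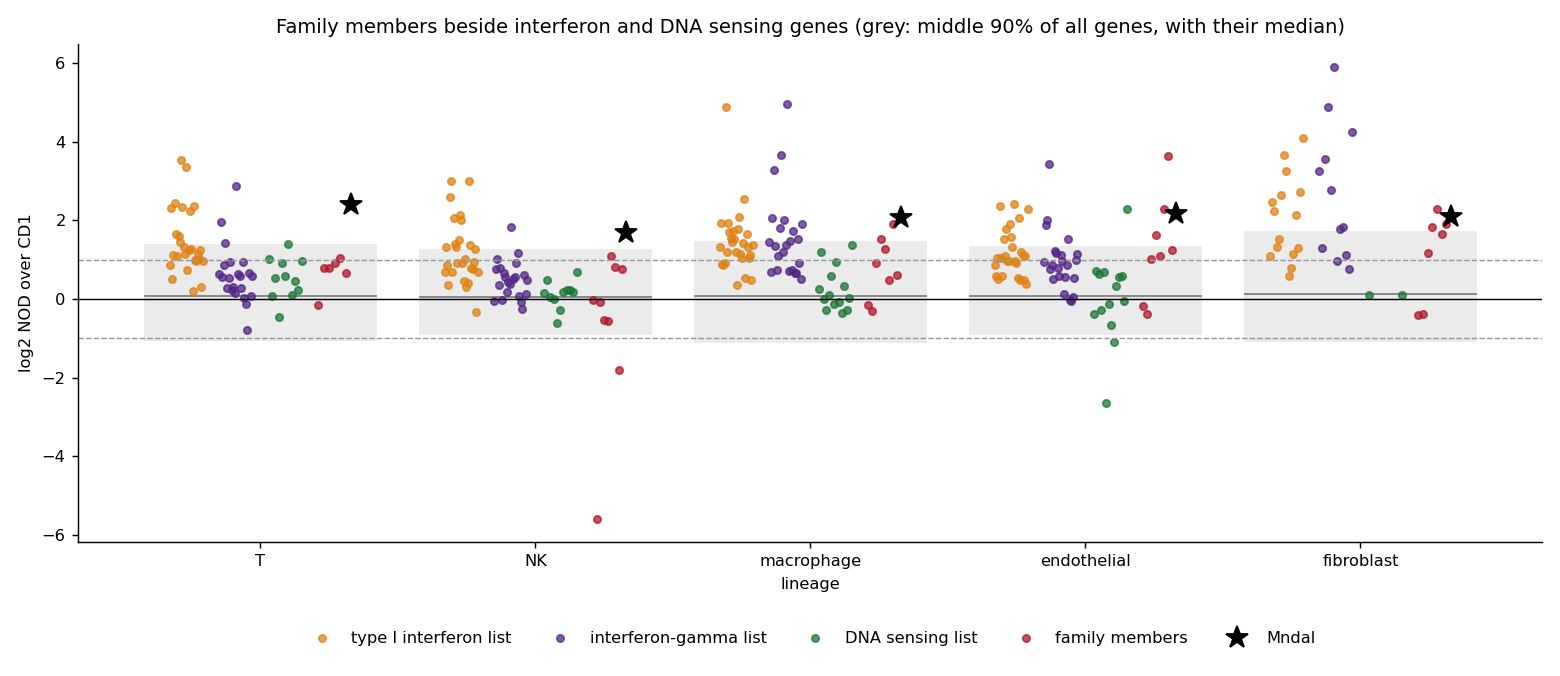
Log2 ratio of NOD over CD1 (vertical axis) in 5 lineages for genes of the type I interferon, interferon-gamma and DNA sensing lists and for the family members, each point 1 gene with at least 20 UMIs and UMIs in both libraries, with *Mndal* as a star. Grey boxes span the middle 90% of all genes, the grey line is their median, and dashed lines mark 2-fold. *Mndal* lay between 1.69 and 2.39 in every lineage, while the other members spread from -5.60 to 3.64.

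Within a library, barcodes were also split at the median share of UMIs that fell on the type I and interferon-gamma lists together. Neither list holds a family member, and the levels of the high and the low group were compared. Without thinning, most members were higher in the high group of macrophage-like barcodes in both strains. *Mndal* was 247 CPM in the low and 420 CPM in the high group of NOD (log2 ratio 0.77, 0.62 to 0.92) and 57.5 and 103 CPM in CD1 (0.84, 0.69 to 0.99). *Ifi204* stood at 1.90 (1.61 to 2.21) in NOD and 2.06 (1.82 to 2.32) in CD1, and *Ifi202b* stood at 1.38 and 1.36, *Ifi211* at 1.28 and 1.40, *Ifi203* at 0.89 and 0.98, and *Aim2* at 0.24 and 0.13.
With each barcode thinned to 500 UMIs before the split, the ratio of *Mndal* was 0.69 (0.12 to 1.27) in NOD and 0.91 (0.30 to 1.53) in CD1. The NOD intervals of *Ifi202b* (0.75, -0.12 to 1.65), *Ifi203* (0.58, -0.06 to 1.22) and *Ifi211* (0.22, -1.13 to 1.56) then included 0. Their CD1 intervals did not, at 1.20, 0.79 and 0.92. *Ifi204* stayed clear of 0 in both, at 1.22 and 2.40, and *Aim2* was at -0.09 in NOD and -0.01 in CD1. The share was then counted on those 500 UMIs and split at 0.4% in NOD and 0.2% in CD1, so few UMIs placed a barcode. The groups were no longer equal in size, at 393 and 338 barcodes in NOD and 1966 and 1001 in CD1. Groups were unequal in the other lineages too, so the thinned ratios are blurred by the placing of barcodes as well as by depth.
The other lineages are given for both strains, without and with this thinning. Endothelial-like barcodes held 411 and 655 CPM in the low and high groups of NOD (0.67, 0.57 to 0.77) and 121 and 119 CPM in CD1 (-0.02, -0.14 to 0.10). After thinning these ratios were 0.83 (0.49 to 1.16) and 0.32 (-0.12 to 0.75), and the intervals overlap. NK-like barcodes held 305 and 534 CPM in NOD (0.81, 0.68 to 0.94) and 131 and 138 CPM in CD1 (0.08, -0.16 to 0.33), and the median depths of the NOD groups were 6890.5 and 8717 UMIs. After thinning the NK-like ratio was 0.11 (-0.44 to 0.64) in NOD and 0.19 (-1.23 to 1.48) in CD1, so no difference between the groups was detectable in either strain at that depth. In T-like barcodes the NOD ratio was 0.74 (0.67 to 0.82) and the CD1 ratio -0.01 with a wide interval (-0.68 to 0.66), and NOD B-like barcodes gave 0.53 (0.40 to 0.66). After thinning, NOD T-like barcodes gave 0.53 (0.29 to 0.78) and NOD B-like barcodes 0.20 (-0.23 to 0.64), and CD1 T-like barcodes held too few UMIs for a ratio.
Without thinning, *Ifi204* stood at 1.04 (0.65 to 1.43) and *Ifi202b* at 1.01 (0.72 to 1.31) in CD1 endothelial-like barcodes. After thinning, *Ifi204* was at 1.04 with an interval that includes 0 (-0.86 to 2.94), and *Ifi202b* was at -0.04 (-1.37 to 1.17). *Ifi203* stood at 0.55 (0.40 to 0.70) in CD1 NK-like barcodes without and 0.45 (-0.29 to 1.16) with thinning, and *Ifi209* at 1.27 (0.72 to 1.84) without it and on too few UMIs for a ratio with it. Without thinning, *Aim2* was near 0 in NOD T-like (-0.04), NK-like (0.05) and endothelial-like barcodes (-0.05). In CD1 the *Aim2* ratio was 0.53 (0.13 to 0.93) in T-like, 0.09 (-0.08 to 0.26) in NK-like and 0.14 (-0.06 to 0.35) in endothelial-like barcodes. After thinning, the CD1 T-like ratio of *Aim2* was 0.35 with an interval that includes 0 (-1.24 to 1.81). The share at the split was not the same, at 0.610% of UMIs in NOD and 0.359% in CD1 endothelial-like barcodes, so the groups do not match between strains. The difference between the strains was not tested.

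The genes whose log2 ratios over T-like, NK-like, macrophage-like and endothelial-like barcodes were nearest to those of *Mndal*, by the root mean square difference over 10960 genes, were *Gm34755* (0.23), *TrnC* (0.25), *Gpat3* (0.28), *Trim34a* (0.31) and *Jchain* (0.38). *Trim34a* belongs to a family of interferon-inducible TRIM genes, and *Jchain* is a gene of antibody-secreting cells. Among family rows *Ifi206* ranked 57, *Ifi209* 119, *Ifi214* 328, *Ifi204* 408 and *Ifi203* 506, whereas *Ifi211* ranked 6821, *Aim2* 8046 and *Ifi202b* 10937. Likeness over 4 ratios that share 2 libraries is a description.
Empty droplets (barcodes with 10 to 100 UMIs) were also higher in NOD for these genes, with 2890 CPM of *Jchain* in NOD and 1627 CPM in CD1 and 25.5 and 1.48 CPM of *Trim34a*, which was 125 and 5 UMIs. In T-like barcodes *Jchain* stood at 44.2 and 10.2 CPM. Empty droplets held 413 CPM of *Mndal* in NOD and 91.4 CPM in CD1, and 22.5 and 118 CPM of *Ifi202b*. Over 8 processing alternatives, which include the subtraction of 10% of UMIs as free RNA, the log2 ratio of *Mndal* ranged from 1.64 to 1.69 in NK-like and from 2.28 to 2.61 in T-like barcodes, and *Mndal* stayed past 2-fold in all 5 lineages under every alternative. Since *Mndal* in empty droplets differed between the libraries in the same direction, this subtraction could move its ratio only little. The part of free RNA in that ratio was not tested. T-like marker UMIs were also more frequent in NOD macrophage-like (139 CPM against 9.07 CPM in CD1) and endothelial-like barcodes (105 against 6.90 CPM), and their part in the ratios was not tested.

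Genes beside the family on the chromosome were mostly too low to compare. Of 35 RefSeq genes between or beside the family genes, 16 matched a row and 5 had 20 UMIs in a lineage. Among these, *Ackr1*, which encodes a chemokine receptor of venular endothelium and overlaps the RefSeq span of *Aim2*, stood at 7.76 CPM in NOD and 2.42 CPM in CD1 endothelial-like barcodes (log2 ratio 1.68, 1.07 to 2.29). *Slamf8* gave 24 and 3 UMIs in NK-like barcodes and 3 and 27 UMIs in endothelial-like ones, *Dusp23* gave 41 and 1 UMIs in T-like barcodes, and *Cadm3* gave 23 and 0 UMIs in NK-like barcodes. None of the 5 was past 2-fold in the same direction in more than 1 of the 5 lineages.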

How the data were processed

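The authors deposited raw UMI counts of each gene in each barcode, made with Cell Ranger 8.0.0 per the file headers, which list all barcodes without a cell filter. GRCm39, Seurat 5.0.1 and R 4.3.1 are named in the submitters' processing notes. The libraries held 52790319 (NOD) and 56483149 (CD1) UMIs. A lineage needed at least 3 marker UMIs from at least 2 markers and 2 times the UMIs of the next list (13 lists). Doublets were kept, and removing the highest Scrublet scores (scanpy 1.11.5, 0.8% per 1000 barcodes) was an alternative. UMIs were summed per lineage and library. Levels have exact Poisson, ratios conditional binomial and shares Clopper-Pearson intervals (scipy 1.17.1). Only the ratio intervals and the 2-fold rule were tried on simulated counts, which held counting error alone. Ratios needed 10 barcodes per library, and splits by interferon share 100. A gene at 0 in a library was set against 3 counts. The members and lists were chosen with earlier results of these data known. Named list genes were the 5 with most UMIs of each list, the 5 nearest to *Mndal*, and neighbours past 2-fold, of which 1 is not reported here. No test was made.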

Additional observations from a re-analysis of the deposited data

Results flagged for a closer look

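For 2 members the strains differed in opposite directions by lineage, with counting intervals on opposite sides of 0. *Ifi211* had a log2 ratio of NOD over CD1 of 1.24 in endothelial-like and -1.80 in NK-like barcodes, 3.05 apart, and *Ifi204* of 1.64 and -0.54, 2.19 apart. The NK-like barcodes of the libraries differed in kind, and within those with more *Xcl1*, 86.4% of CD1 and 50.7% of NOD, *Ifi211* was at -1.58 (-1.96 to -1.22) and *Ifi204* at -0.29 with an interval that includes 0 (-0.85 to 0.25). The differences between the lineages were not tested, since each strain has 1 library.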

How the results depend on the processing

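No paired analysis was possible because each strain has 1 library. Over 8 alternatives for each ratio and the added split of NK-like barcodes, 399 of 433 values stayed within their counting interval, 29 moved out of it and 5 that were past 2-fold changed sign, while 421 of the 433 kept their sign. The 5 were those of *Ifi207* in NK-like barcodes, at -2.83 with markers at least 5 times the next list and -1.10 with equal weight per barcode, and of *Ifi205* in endothelial-like barcodes, at -0.76 at no more than 10% mitochondrial UMIs, -0.92 without the highest Scrublet scores and -0.79 with equal weight per barcode. A further 11 values of 8 ratios fell below 2-fold with their sign kept, among them *Ifi205* in macrophage-like (0.16 with markers at least 5 times the next list) and fibroblast-like barcodes (0.96 without the highest Scrublet scores), *Ifi207* in fibroblast-like barcodes (0.61 with equal weight per barcode), and *Ifi209* in T-like (0.95) and *Ifi203* in endothelial-like barcodes (0.95) with median-of-ratios scaling, which shifts all genes by 0.10 and 0.07 there. Thinning to 500 UMIs moved 30 of 53 ratios of the interferon split, and 43 of the 53 kept their sign. Of those past 2-fold, only *Ifi202b* in CD1 endothelial-like barcodes changed sign, to -0.039. Of the numbers of genes past 2-fold, a minimum of 50 UMIs per gene gave 396 lower in T-like, 435 higher and 259 lower in NK-like, 759 and 496 in macrophage-like and 673 and 367 in endothelial-like barcodes, and a minimum of 1 UMI gave 1596 lower in T-like, 1692 higher and 1186 lower in NK-like, 2226 higher in macrophage-like and 2112 higher and 973 lower in endothelial-like barcodes. The number of genes compared changes with the minimum, so these numbers rise or fall with it and do not show the shares. Depth limits *Ifi205*, *Ifi213* and all CD1 fibroblast-like values (18 barcodes).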

Other observations

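NOD dendritic-like barcodes (39) held 496 CPM of *Mndal*, 217 CPM of *Aim2*, 157 CPM of *Ifi211* and 98.2 CPM of *Ifi205*, and CD1 had 4 such barcodes. NOD B-like barcodes (903) held 120 CPM of *Ifi209*, 227 CPM of *Aim2* and 0.81 CPM of *Ifi202b*, from 4 UMIs. Barcodes without a lineage, 936 in NOD and 536 in CD1, held 448 and 92.9 CPM of *Mndal* and 18.8 and 97.4 CPM of *Ifi202b*. Of 13 CD1 plasma-like barcodes, 10 had the highest Scrublet scores, and the median depth of the 13 was 40762 UMIs. Removing the highest Scrublet scores from both libraries left 43 NOD and 3 CD1 plasma-like barcodes. The log2 ratio of *Ifi202b* in plasma-like barcodes was -4.79 before and -0.38 after this removal, and that of *Mndal* was 1.54 and 0.23. In 13 NOD and 14 CD1 mural-like barcodes *Mndal* gave 29 and 2 UMIs.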
